A study of Mus musculus with 2 samples.

Results

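The genes described are 5 enzymes that build the sugar chains of dystroglycan: Pomt1, Pomt2, Pomgnt1, Pomk and B4gat1. They were chosen by name from the enzyme pathway and are 5 of the 55536 named genes in the tables. Total RNA was sequenced from the gastrocnemius, the large calf muscle, of female mice 10 days after birth. The animals were B6CASTF1/J, first-generation hybrids bred from C57BL/6J and CAST/EiJ parents, and no treatment or mutation is labelled. There was 1 group with 2 libraries, biological replicates 1 and 2, each made from 300 ng of RNA that carried ERCC spike-ins, a set of synthetic RNAs. The labels do not say that each replicate came from 1 animal, so the spread between them may be technical. A comparison of conditions does not exist in this design, and the data answer how much of each enzyme transcript the young muscle held and in which transcript forms.

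Dystroglycan is a receptor on the muscle fibre surface that ties the cytoskeleton to laminin outside the cell. Its alpha subunit binds laminin only after a special sugar chain has been built on O-linked mannose. POMT1 and POMT2 form the heteromeric enzyme of the endoplasmic reticulum that attaches the mannose. POMGNT1 works in the Golgi apparatus and adds N-acetylglucosamine to O-mannose. POMK is a kinase that phosphorylates the mannose of the laminin-binding chain, and B4GAT1 adds the glucuronic acid that primes the chain for its extension. In humans, mutations in any of these genes can cause a dystroglycanopathy, a muscular dystrophy that often includes brain and eye defects.

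The RSEM-format gene tables held 35925081 expected counts for replicate 1 and 39969380 for replicate 2. Expected counts are reads divided among genes by a model, and TPM is a transcript abundance per effective length, scaled to the same total in each library, so TPM levels of different genes can be set side by side. All 7 skeletal muscle fibre markers were detected, at mean TPM between 708 and 24341. Markers of other cells were present too. The 5 bone and marrow markers summed to a TPM of 245 in replicate 1 and 0.65 in replicate 2, with Ibsp and Bglap at 0 in replicate 2. The 5 fibroblast markers summed to 7421 in replicate 1 and 4535 in replicate 2, a difference carried mainly by the collagen genes Col1a1, at 3542 and 1887, and Col1a2, at 1983 and 1123. The fibroblast marker Dcn differed little, at 255 and 230. None of the 3 neuron markers was detected in both libraries; they summed to 1.45 in replicate 1 and 0.14 in replicate 2, with Chat at 0 in both. The part of these cells in the values below was not tested, and in whole tissue a smaller number of cells of a type cannot be told apart from less RNA per cell.

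All 5 enzyme genes were detected, that is, had a TPM of 1 or more in both libraries, as did 52.3% of the 22015 nuclear protein coding genes. All 5 were also detected in the kallisto-format tables, where 55% of those genes were. Pomgnt1 was the highest, B4gat1 and Pomt1 lay in the middle, and Pomk and Pomt2 were the lowest. Among the 11514 detected protein coding genes, whose median TPM was 9.35 with quartiles at 4.19 and 20.9, Pomgnt1 stood at percentile 78.2, B4gat1 at 51.1, Pomt1 at 42.8, Pomk at 20.5 and Pomt2 at 19.7. In these RSEM-format values Pomgnt1 thus exceeded the upper quartile, and Pomk and Pomt2 fell short of the lower one. Among the genes detected in the kallisto-format tables, Pomgnt1 stood at percentile 78.2, Pomt1 at 50.1, B4gat1 at 47.6, Pomt2 at 29.1 and Pomk at 22.4. There only Pomk fell short of the lower quartile. The 5 genes together had a TPM of 49.2 in replicate 1 and 46.3 in replicate 2, of which Pomgnt1 made up 49.6% and 49.8%.

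The steps of this order differed in size. Pomgnt1 exceeded B4gat1 by a log2 TPM ratio of 1.29 ± 0.06 (SD, n = 2), a fold of 2.45. B4gat1 exceeded Pomt1 by 0.38 ± 0.05, and Pomt1 exceeded Pomk by 1.09 ± 0.01. At each of these steps the ranges over the 2 libraries did not overlap. Pomk and Pomt2 could not be ordered: Pomt2 was the higher in replicate 1 and Pomk in replicate 2, with a log2 ratio of Pomk over Pomt2 of 0.06 ± 0.30. The kallisto-format tables kept Pomgnt1 on top but placed Pomt1 above B4gat1 in replicate 1 and below it in replicate 2. They placed Pomt2 above Pomk in both libraries, by a log2 ratio of Pomk over Pomt2 of -0.64 in replicate 1 and -0.05 in replicate 2.

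**Figure D1:**
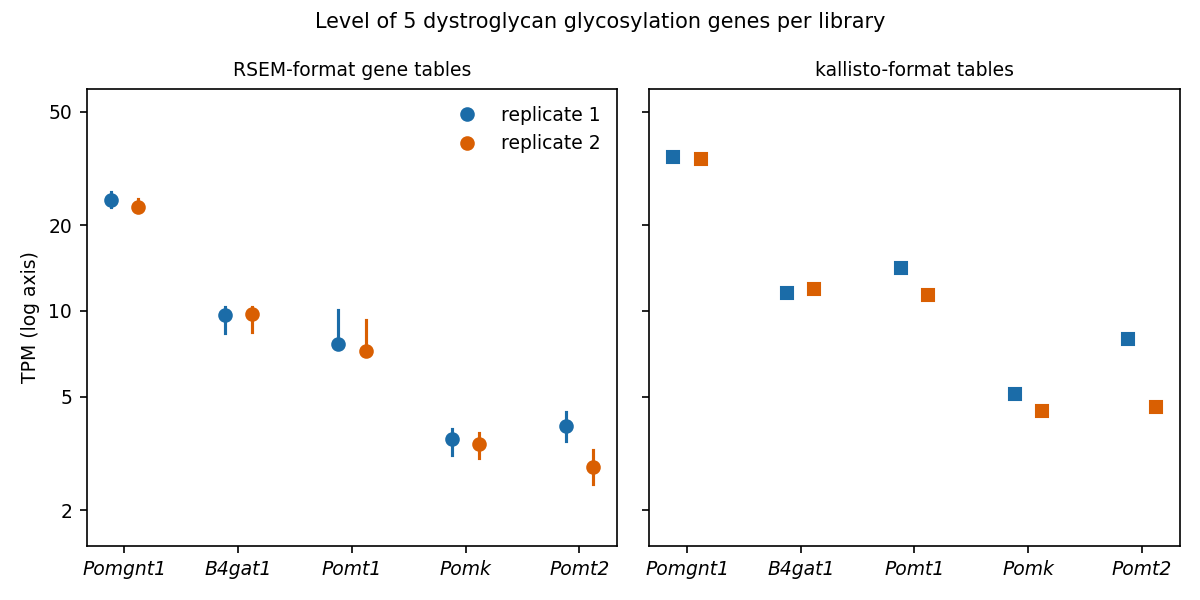
TPM on a log axis for each gene in replicate 1 (blue) and replicate 2 (orange), in the RSEM-format gene tables (left; circles, with lines for the tables' own credibility bounds) and in the kallisto-format tables (right; squares, summed over transcripts). In the left panel Pomgnt1 sits at 24.4 and 23.1, well above the others, and Pomk and Pomt2 overlap between 2.84 and 3.95.

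Pomt1 and Pomt2 encode the partners of the mannosyltransferase, and their transcripts were unequal. Pomt1 (ENSMUSG00000039254.16, chr2:32236590-32255005, plus strand, mm10) had a TPM of 7.62 in replicate 1 and 7.25 in replicate 2, a mean of 7.44 ± 0.26 (SD, n = 2), from 515 and 577 expected counts. Pomt2 (ENSMUSG00000034126.5, chr12:87106861-87147968, minus strand) had 3.95 in replicate 1 and 2.84 in replicate 2, a mean of 3.40 ± 0.79, from 443 and 376 expected counts. Both Pomt1 values lay above both Pomt2 values. The log2 TPM ratio of Pomt1 over Pomt2 was 0.95 in replicate 1 and 1.35 in replicate 2, a mean of 1.15 ± 0.29 and a fold of 2.22. The counts were closer than the TPM because the model gave Pomt2 an effective length of 3976 and 4122 bases, against 2398 and 2479 for Pomt1. Per length, the ratio was also positive in both libraries in the kallisto-format tables, at 0.82 and 1.30.

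The level of Pomt1 was less settled than its spread between libraries shows. The tables also give a posterior mean TPM, an average over the model's uncertainty, with credibility bounds whose level the file headers do not state. For Pomt1 the posterior mean was 8.72 in replicate 1 and 8.19 in replicate 2, and the bounds ran 7.50 to 10.0 and 7.16 to 9.30, so that the TPM stood close to the lower bound in each library. The bounds of Pomt2 ran 3.49 to 4.43 in replicate 1 and 2.47 to 3.25 in replicate 2 and did not overlap. Both genes overlap a neighbour on the opposite strand: Uck1 shares 4 exon bases with Pomt1, and Gstz1, with a mean TPM of 21.7 ± 0.33, shares 465 bases, or 5.85%, of the Pomt2 exons.

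Pomt1 has 11 annotated transcripts and 1 of them, Pomt1-201, held most of the gene. This form has 20 exons and 746 codons. It took 71.7% of Pomt1 TPM in replicate 1 and 82.6% in replicate 2 in the RSEM-format tables, and 48.8% and 68.4% in the kallisto-format tables. By counts, which are not divided by length, its RSEM-format share was 84.3% and 93.9%. The short coding form Pomt1-208, of 227 codons, had 7.02% and 3.89% in the RSEM-format tables and 11.0% and 21.3% in the kallisto-format tables. Pomt1-211, annotated as a target of nonsense-mediated decay, the pathway that destroys messages with an early stop, was at 0 in both libraries of the RSEM-format tables but at 20.1% in replicate 1 and 0 in replicate 2 of the kallisto-format tables. That share rested on 23.7 estimated counts. The coding transcript Pomt1-202 was at 0 in both libraries of both tables. As this form shares its reads with others, the listed 0 gives no limit on its amount.

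Pomt2 has 4 annotated transcripts, and its full-length form held a smaller share than that of any other gene of the 5 in the RSEM-format tables. Pomt2-201, with 21 exons and 820 codons, took 58.9% in replicate 1 and 66.8% in replicate 2 there, and 40.3% and 52.8% in the kallisto-format tables. Most of the rest was Pomt2-204, an annotated decay target of 603 codons, with 31.4% and 24.5% in the RSEM-format tables and 30.1% and 28.7% in the kallisto-format tables. By expected counts its share was smaller, at 21.1% and 15.9%. Its share of TPM was close in the 2 kinds of table, unlike that of the fragment Pomt2-202, classed as intron-retaining, which had 4.92% and 5.70% in the first and 23.7% and 14.9% in the second. The fragment's larger share came from 18.0 and 8.00 estimated counts. Pomt2-203, of the same class, had 4.83% and 3.01% in the RSEM-format tables and 5.93% and 3.50% in the kallisto-format tables.

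Pomt2-204 is annotated with 2774 bases, against 5064 for Pomt2-201, and is shorter at both ends. It also keeps an intron of 81 bases, in which the reading frame meets a stop. The stretch from the end of the exon to that stop is shown because it ends the reading frame of the decay form; it lies at chr12:87111497-87111583 on the minus strand (GRCm38, from the GENCODE M21 transcript), with 60 exon bases in lower case and the 27 intron bases up to and including the stop codon TAG in capitals.
Pomt2-204: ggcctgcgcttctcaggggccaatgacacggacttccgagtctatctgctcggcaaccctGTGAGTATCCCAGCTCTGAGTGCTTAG
In Pomt2-201 the capitals and the rest of the intron are absent and the frame runs on into the next exon. The 2 forms summed to most of the gene in both libraries, and the decay form was counted from 93.5 and 59.7 expected counts.

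Pomgnt1 (ENSMUSG00000028700.14, chr4:116123840-116159849, plus strand) was the most abundant of the enzymes. Replicate 1 had a TPM of 24.4 and replicate 2 one of 23.1, a mean of 23.8 ± 0.94 (SD, n = 2), from 1639 and 1869 expected counts. The table's bounds ran 23.2 to 26.2 in replicate 1 and 22.1 to 24.7 in replicate 2 and overlapped. In the kallisto-format tables the gene had 34.6 and 34.1.

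Most of Pomgnt1 was assigned to transcripts with the same coding sequence. Of its 12 annotated transcripts, Pomgnt1-203, Pomgnt1-204 and Pomgnt1-205 share an identical coding sequence of 660 codons and begin at different places. These 3 together held 84.7% in replicate 1 and 94.9% in replicate 2 of Pomgnt1 TPM in the RSEM-format tables, and 86.3% and 86.4% in the kallisto-format tables. Which start they used was not settled by the tables. The RSEM-format tables put 84.4% and 94.5% on Pomgnt1-203 and 0 in both libraries on Pomgnt1-205. The kallisto-format tables put 43.1% and 13.5% on Pomgnt1-203, 20.8% and 53.8% on Pomgnt1-205, and 22.5% and 19.1% on Pomgnt1-204. The listed 0 is therefore a division of shared reads by the model and gives no limit on the amount of Pomgnt1-205. In the kallisto-format tables the leading transcript even changed between the libraries, as it did in 16.6% of the 10508 detected protein coding genes with more than 1 transcript; in the RSEM-format tables it differed in 12.1% of them. The leading transcript differed between the 2 kinds of table in at least 1 library for 33.9% of these genes, and Pomgnt1 was the only one of the 4 multi-transcript enzymes where it did.

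**Figure D2:**
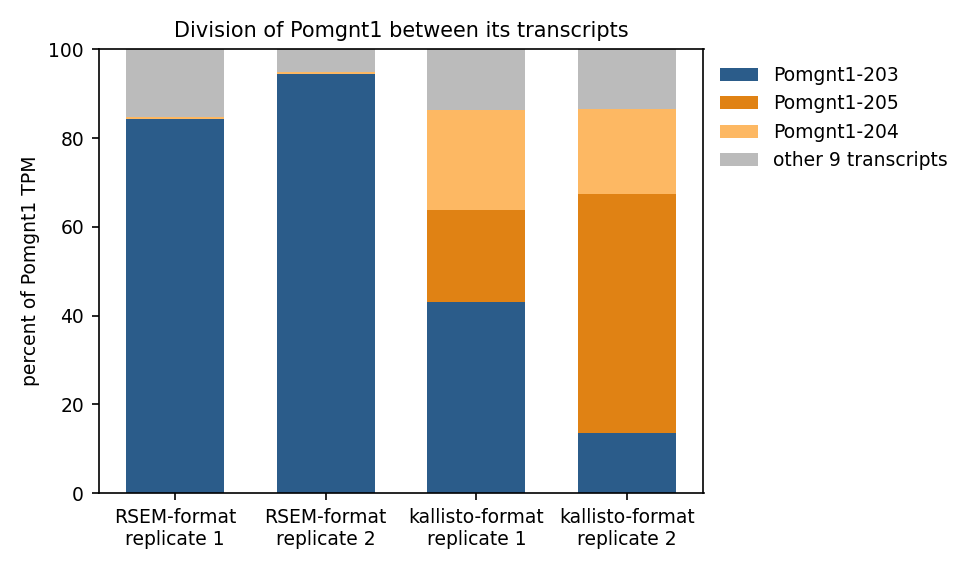
Percent of Pomgnt1 TPM held by Pomgnt1-203, Pomgnt1-205, Pomgnt1-204 and the other 9 transcripts, as stacked bars for each library in each kind of table. The 3 same-coding forms fill 84.7% and 94.9% of the RSEM-format bars and 86.3% and 86.4% of the kallisto-format bars, but only the kallisto-format bars divide them.

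The 3 forms differ in their first exons, and Pomgnt1-204 differs also in its number of exons. Pomgnt1-203 and Pomgnt1-205 each have 22 exons, in 2719 and 2693 bases. Pomgnt1-204 has 23 exons in 2953 bases. Pomgnt1-203 has a first exon of 100 bases. Pomgnt1-205 begins 12763 bases upstream of it with a first exon of 74 bases, and Pomgnt1-204 begins 13281 bases upstream with 592 bases. Both upstream first exons lie wholly within exons of Lurap1, a gene on the opposite strand. Lurap1 had 660 and 662 expected counts and a mean TPM of 4.37 ± 0.15, and its exons cover 641 bases, or 11.7%, of the Pomgnt1 exons. The libraries are labelled stranded, but whether reads were counted by strand is not given in the sources used here. Reads of the shared 641 bases may belong to either gene.

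**Figure D3:**
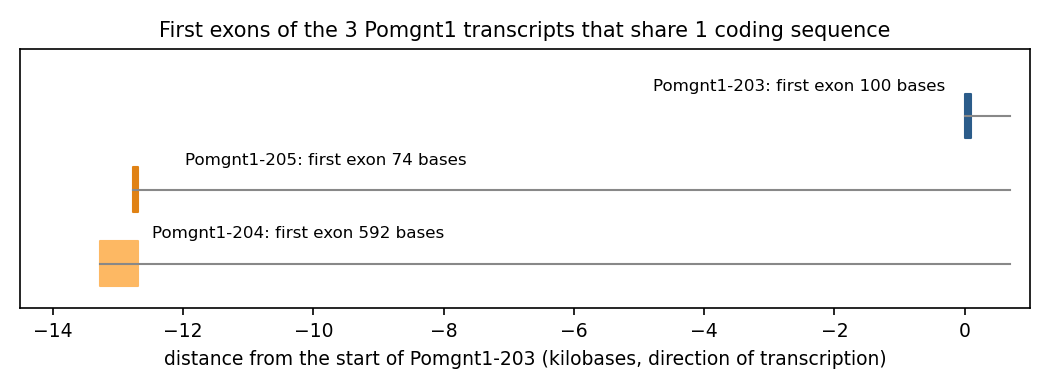
First exons of the 3 Pomgnt1 transcripts as boxes, placed by distance in kilobases from the start of Pomgnt1-203, with a line for the stretch up to and past that start. The upstream first exons start 12763 and 13281 bases before it, and the box of Pomgnt1-204 is 592 bases wide.

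The region just before the Pomgnt1-203 start is shown because the RSEM-format tables place most of the gene there. The 250 bases before that start lie at chr4:116150268-116150517 on the plus strand (GRCm38.p6, from the RefSeq promoter table), and capitals mark each copy of the GC box GGGCGG, searched on both strands, with CCGCCC as its other-strand form; no copies of it overlap.
Pomgnt1: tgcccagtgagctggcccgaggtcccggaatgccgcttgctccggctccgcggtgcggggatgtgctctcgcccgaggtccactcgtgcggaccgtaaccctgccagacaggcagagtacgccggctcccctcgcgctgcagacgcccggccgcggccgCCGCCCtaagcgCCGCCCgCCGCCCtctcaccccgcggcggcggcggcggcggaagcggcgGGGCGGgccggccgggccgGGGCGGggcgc
This window holds 5 GC boxes and is 80% G or C, at percentile 98.8 of 32851 promoter windows of the same length, whose median was 52.4%. A GC box occurs in 32.7% of those windows. The window holds no TATAAA, found in 12.4% of windows, no CCAAT, found in 33.8%, and no CAGCTG, found in 13.0%. The table has a second Pomgnt1 window, before the start of Pomgnt1-201, a form with 2.06% of Pomgnt1 TPM in replicate 1 and 0 in replicate 2 of the RSEM-format tables. That window is 49.6% G or C, at percentile 39.5, and holds no GC box and 1 TATAAA. Of the other enzymes, Pomt1, Pomt2 and B4gat1 have windows in the table, at 60%, 62.4% and 67.2% G or C. Among these 3 windows only that of Pomt2 holds any of the motifs searched, with 1 GC box and 2 copies of CCAAT. Pomk has no entry. These matches describe the letters and not binding of any factor.

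The annotation also lists a Pomgnt1 form with a shorter protein. Pomgnt1-202 lacks 1 exon of 99 bases, which is 33 codons and keeps the reading frame. The exon, at chr4:116153842-116153940 on the plus strand (GRCm38, from the GENCODE M21 transcript), is shown in capitals with 15 spliced bases of Pomgnt1-203 on each side in lower case.
Pomgnt1-203 exon: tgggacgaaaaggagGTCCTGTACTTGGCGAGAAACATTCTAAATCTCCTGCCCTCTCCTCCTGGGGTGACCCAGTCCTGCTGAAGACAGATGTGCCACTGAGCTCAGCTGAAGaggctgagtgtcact
Pomgnt1-202 had 0 expected counts in both libraries, and under 1 estimated count in each library of the kallisto-format tables. It shares most of its sequence with Pomgnt1-203, so these values too are a division of shared reads by the model and give no limit on its amount. Of the noncoding fragments, Pomgnt1-206 had 5.59% and 2.68% in the RSEM-format tables and 8.49% and 3.84% in the kallisto-format tables.

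Pomk (ENSMUSG00000037251.5, chr8:25980604-25994133, minus strand) has 1 annotated transcript of 5 exons and 349 codons, and no annotated exon of another gene overlaps it. Replicate 1 had a TPM of 3.56 and replicate 2 one of 3.42, a mean of 3.49 ± 0.10 (SD, n = 2), from 353 and 386 expected counts. The bounds ran 3.13 to 3.85 in replicate 1 and 3.04 to 3.72 in replicate 2. The kinase gene was thus near the low end of the 5 by TPM, with a level that overlapped between libraries. With a single transcript its reads needed no division within the gene, and the kallisto-format tables gave 5.13 and 4.45.

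B4gat1 (ENSMUSG00000047379.7, chr19:5038826-5041131, plus strand) was the steadiest of the 5 by RSEM-format TPM. Replicate 1 had a TPM of 9.69 and replicate 2 one of 9.72, a mean of 9.71 ± 0.02 (SD, n = 2), from 531 and 603 expected counts. The table's bounds were wider than this spread and ran 8.35 to 10.3 in replicate 1 and 8.44 to 10.3 in replicate 2. The B4gat1 counts are uncertain for another reason: AC124502.3, a longer annotated protein coding gene on the same strand, covers 1967 of its 2306 exon bases, or 85.3%. AC124502.3 received 36.5 and 42.0 expected counts in the RSEM-format tables but 178 and 144 estimated counts in the kallisto-format tables. In the kallisto-format tables B4gat1 had 457 and 557 estimated counts. How far the shared bases account for these differences was not tested.

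B4gat1 has only 1 intron, of 274 bases, and its second transcript keeps it. The spliced form B4gat1-201, of 415 codons, held 94.8% in replicate 1 and 98.9% in replicate 2 in the RSEM-format tables, and 93.2% and 99.2% in the kallisto-format tables. The unspliced form B4gat1-202, of 379 codons, held 5.20% and 1.08% in the first and 6.85% and 0.83% in the second. The join is shown because the retained intron replaces the end of the coding sequence; it lies at chr19:5040003-5040116 on the plus strand (GRCm38, from the GENCODE M21 transcript), with 30 exon bases in lower case and the 84 intron bases up to and including the stop codon TGA in capitals.
B4gat1-202: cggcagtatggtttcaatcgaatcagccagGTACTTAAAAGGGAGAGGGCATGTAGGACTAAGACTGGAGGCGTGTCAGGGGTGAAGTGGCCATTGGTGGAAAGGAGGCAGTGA
Both kinds of table gave B4gat1-202 a lower share in replicate 2, where it had 7.12 expected counts, than in replicate 1, where it had 30.2.

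Transcripts that hold a whole intron were less represented in replicate 2 in each of the 4 enzymes that have such a form. In the RSEM-format tables their share of the gene was 31.4% in replicate 1 and 24.6% in replicate 2 for Pomt2. It was 9.72% and 2.07% for Pomt1, 5.17% and 1.03% for B4gat1, and 3.60% and 0.26% for Pomgnt1. The kallisto-format tables gave the same direction for all 4. This measure was chosen after the values were seen, and it was not particular to the enzymes: the share was lower in replicate 2 for 82.8% of 3566 detected protein coding genes with such a form in the RSEM-format tables, for 80.6% in the kallisto-format tables and for 74% in both. The median share over these genes was 6.14% in replicate 1 and 3.24% in replicate 2 in the RSEM-format tables. Only Pomt2 stood above the gene median in both libraries of both kinds of table.

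**Figure D4:**
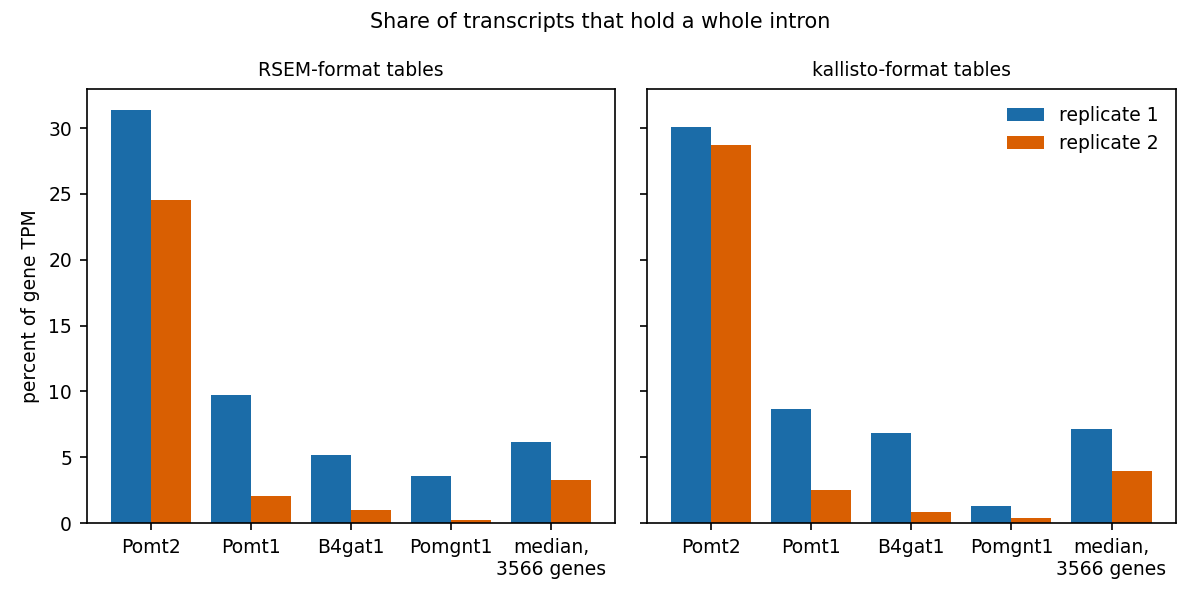
Percent of gene TPM held by transcripts that keep a whole intron of the leading form, for 4 enzymes and for the median of 3566 genes, in replicate 1 (blue) and replicate 2 (orange), in both kinds of table. Pomt2 reaches 31.4% and 24.6% in the left panel, and every pair of bars is lower in replicate 2.

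Between the libraries the 5 levels moved little. After TMM scaling, the log2 ratio of replicate 2 over replicate 1 was 0.25 for Pomgnt1, 0.24 for B4gat1, 0.22 for Pomt1, 0.19 for Pomk and -0.18 for Pomt2. The 95% exact binomial intervals, which cover counting error only, were 0.15 to 0.35 for Pomgnt1, 0.07 to 0.41 for B4gat1, 0.05 to 0.40 for Pomt1, -0.02 to 0.40 for Pomk and -0.38 to 0.03 for Pomt2. None of the 5 passed 2-fold, as 1.06% of the 11760 genes that averaged 100 or more counts did, and the median absolute ratio of those genes was 0.18. Ratios above 0 were seen in 4 of the 5 and in 58.1% of all genes. The sign depended on scaling. By TPM, Pomgnt1, Pomt1 and Pomk were lower in replicate 2, though their TMM ratios were above 0. B4gat1, the steadiest of the 5 by RSEM-format TPM, had a TMM ratio of 0.24. With spike-in totals all 5 ratios were below 0, between -0.54 for Pomt2 and -0.11 for Pomgnt1, and 9.83% of all genes were above 0. With 1 library on each side no test was possible, and for values taken within both libraries a sign-flip test could reach no p below 0.5.

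The 2 kinds of table are separate estimates from the same libraries and not replicates. The log2 TPM ratio of RSEM-format over kallisto-format was -0.53 ± 0.04 for Pomgnt1, -0.28 ± 0.03 for B4gat1, -0.77 ± 0.17 for Pomt1, -0.45 ± 0.10 for Pomk and -0.85 ± 0.22 for Pomt2 (SD, n = 2 each). None of these means passed 2-fold, as 8% of detected protein coding genes did, and the median of those genes was -0.53. Nuclear protein coding genes held 45.5% and 46.4% of TPM in the RSEM-format tables and 74.5% and 74.3% in the kallisto-format tables. With both rescaled to those genes, the ratios were 0.16 for Pomgnt1, 0.42 for B4gat1, -0.07 for Pomt1, 0.24 for Pomk and -0.16 for Pomt2, beside a median of 0.16, and 1.55% of genes passed 2-fold. Relative to the median, the RSEM-format tables gave less Pomt1 and Pomt2 and more B4gat1.

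From a separate list of 8 enzymes of the laminin-binding chain, 7 were detected. Their median TPM over the 8 was 7.35, beside 7.44 over the 5, and the difference was not tested. The highest were Rxylt1, which adds xylose, at 17.6 ± 1.75 (SD, n = 2), and B3galnt2, which adds N-acetylgalactosamine, at 16.5 ± 2.17. Pomgnt2, which extends the mannose in the step before B3galnt2, had 3.03 ± 0.08, below the RSEM-format means of Pomk and Pomt2. In replicate 2, however, Pomgnt2 stood above Pomt2, at 2.97 against 2.84. In the kallisto-format tables its mean of 4.87 was above that of Pomk, at 4.79, and below that of Pomt2, at 6.28. Large2 was below the detection limit with a TPM of 0.31 in replicate 1 and 0.16 in replicate 2. In the RSEM-format tables the Pomgnt1 level exceeded that of each of these 8 genes in both libraries. In the kallisto-format tables Pomgnt1 and B3galnt2 were level in replicate 1, both at 34.6. In replicate 2 they stood there at 34.1 and 25.4.

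**Figure D5:**
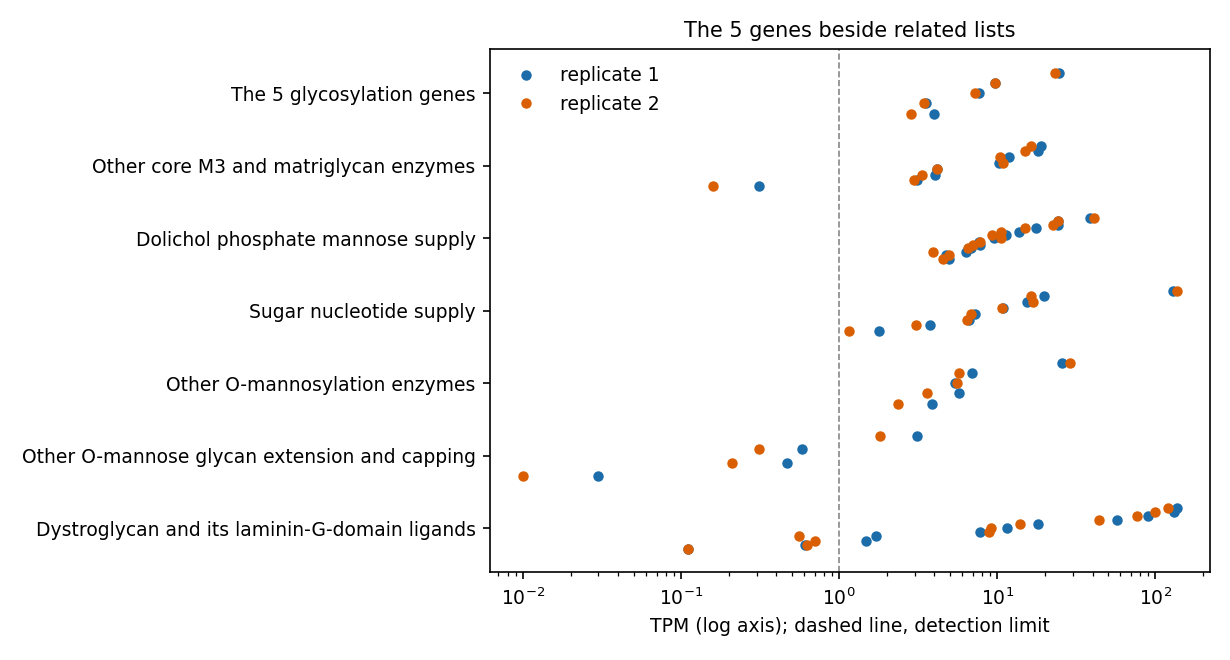
TPM on a log axis for the 5 enzymes (top row) and for the genes of 6 related lists, with replicate 1 in blue, replicate 2 in orange and a dashed line at the detection limit of 1. The 5 enzymes lie between 2.84 and 24.4. The lowest values, 0.03 and 0.01, are those of B3gat2, on the list for extension and capping of O-mannose chains. Lama1, on the list of ligands, lies at 0.11 in both libraries.

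Genes that supply the sugars were all detected. The 13 genes listed for the supply of dolichol phosphate mannose, the donor used by the Pomt1 and Pomt2 products, had mean TPM between 4.76, for Srd5a3, and 39.7, for Mpi, with Dpm1 at 24.2 and Dpm3 at 23.5. Each of the 13 exceeded Pomt2 in both libraries of the RSEM-format tables. In replicate 1 of the kallisto-format tables Pomt2, at 7.97, stood above Srd5a3 at 7.72 and Gmppb at 7.39. Of the 8 genes that make sugar nucleotides, the highest was Ugp2, the enzyme of UDP-glucose, at 133, followed by Gfpt1 at 17.9 and Uap1 at 16.1. Of the 5 other O-mannosylation genes, which act on cadherins and other receptors and not through Pomt1 and Pomt2, all were detected; Tmtc1 had 27.1, Tmtc4 6.31, Tmtc3 5.45, and Tmtc2 was lowest at 3.10.

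The 4 further enzymes listed for extending or capping O-mannose chains were mostly below the limit. Only B3gat1 was detected of 4, at 3.10 in replicate 1 and 1.80 in replicate 2. Mgat5b had 0.47 and 0.21, Chst10 0.58 and 0.31, and B3gat2 0.03 and 0.01. The Pomgnt1 level was thus far above those of these 4 genes in both libraries.

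By TPM, the transcript of the substrate was far more abundant than those of the 5 enzymes. Protein amounts were not measured. Dag1, which encodes dystroglycan, had a TPM of 136 in replicate 1 and 119 in replicate 2. In the RSEM-format tables its TPM was 5.58 and 5.17 times that of Pomgnt1 and 14.1 and 12.3 times that of B4gat1. It was 17.9 and 16.5 times that of Pomt1, 38.2 and 34.9 times that of Pomk, and 34.5 and 42.0 times that of Pomt2. In the kallisto-format tables the folds were 6.41 and 4.54 for Pomgnt1, 19.2 and 13.0 for B4gat1, and 15.7 and 13.7 for Pomt1. They were 43.3 and 34.9 for Pomk and 27.8 and 33.7 for Pomt2. Of the 11 listed genes of dystroglycan and its ligands 7 were detected, led by Dag1, the perlecan gene Hspg2 at 115 ± 22.2 and Lama2, the laminin alpha chain of muscle, at 82.9 ± 9.73 (SD, n = 2 each). Lama1 had 0.11 in both libraries, Nrxn2 had 1.47 in replicate 1 and 0.70 in replicate 2, and Nrxn3 had 0.61 and 0.63.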

How the data were processed

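Each library has an RSEM-format gene table, an RSEM-format transcript table and a kallisto-format transcript table. No source used here names the tools. Text files deposited with them name mm10 and GENCODE M21. The deposited values are expected counts (estimated counts in the kallisto-format), in which a model divides shared reads, and TPM, scaled to the same total per library with spike-ins included. Per the file headers, the RSEM-format transcript tables also give the percent of its gene held by each transcript. Spike-ins took 0.720% and 0.798% of counts; rows without a gene name took 1.38e-05% and 5.00e-06% and were left out.

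Levels are TPM per library, with mean and SD. Kallisto-format TPM was summed per gene. Ratios between libraries used rounded expected counts with TMM scaling in edgeR 4.0.16 (R 4.3.3) and a prior count of 0.5. The common coefficient of variation was 0.191 over the 16790 genes averaging 10 or more counts. Alternatives were the size factors of DESeq2 1.42.0 and totals of libraries or spike-ins. Ratios between tables used a pseudocount of 0.01. Pomt1 over Pomt2 was given a direction only if its sign was shared by both libraries and its mean was over 1 SD. Other values came from Python 3.11.15 with pandas 2.3.3.

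Named genes are the 5 enzymes, their transcripts with a mean share of at least 5% in either kind of table, genes with overlapping exons, and in each list the leading 3, the lowest and those under the limit. Transcripts and list genes named beyond these were chosen after their values were seen. Members and lists were chosen with earlier results of these data known. Some list genes that the rule names are not reported here.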

Additional observations from a re-analysis of the deposited data

How the results depend on the processing

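Mean TPM depended on the table and its denominator. In the order Pomt1, Pomt2, Pomgnt1, Pomk and B4gat1, it was 12.7, 6.28, 34.4, 4.79 and 11.8 in the kallisto-format tables and 16.2, 7.40, 51.7, 7.60 and 21.1 with TPM rescaled to nuclear protein coding genes; posterior mean TPM moved Pomt1 to 8.46 and B4gat1 to 9.37. The kallisto-format order left 1 gene at the same rank, and leaving out a replicate left between 3 and 5 there. A detection limit of 5 left 3 of the 5 enzymes, 4 of the chain enzymes, 3 of the other O-mannosylation genes and 0 of the capping genes. In the same order, the log2 ratio of replicate 2 over replicate 1 was 0.011, -0.39, 0.037, -0.024 and 0.031 with library totals and -0.14, -0.54, -0.11, -0.17 and -0.12 with spike-in totals. These scalings shift all genes by -0.21 and -0.36 relative to TMM. Genes past 2-fold between libraries numbered 125, and 726 with a mean count of at least 20, 189 with library totals, 286 with spike-in totals and 198 in the kallisto-format tables; 509 passed 1.5-fold. The mean share was 58.6% for Pomt1-201, 46.6% for Pomt2-201 and 28.3% for Pomgnt1-203 in the kallisto-format tables, and by counts 89.1% for Pomt1-201 and 77.0% for Pomt2-201. With both tables rescaled, the log2 ratios between them were -0.071, -0.16, 0.16, 0.24 and 0.42 in that order. The cause of these shifts was not tested. Pomt1 exceeded Pomt2 in each library in the kallisto-format tables and by posterior mean TPM. The other alternatives run for that ratio could not change its sign, because they scale both genes alike or restate values already given. No paired analysis was possible because the series holds 1 group. With 2 libraries, the spread of each value is itself poorly known.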
